A study of Rattus norvegicus with 4 samples.

Results

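The miR-181 family was described across the 4 arrays of a study of fracture repair in diabetic rats. Its members were taken by name from the miRNA column of the scanner files, and were rno-miR-181a-5p, rno-miR-181b-5p, rno-miR-181c-5p, rno-miR-181d-5p, rno-miR-181a-1-3p, rno-miR-181a-2-3p and rno-miR-181c-3p (the species prefix rno is left out from here on). These are 7 of the 727 rat miRNAs on the array, and all 7 had 1 spot on each array. A further 3 arms of the family, miR-181b-1-3p, miR-181b-2-3p and miR-181d-3p, were on the array outside this list and are given beside it.

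The tissue was fracture callus, the repair tissue that forms around a broken bone, from 12-week-old male Sprague-Dawley rats with a closed transverse fracture of the femoral shaft, fixed with an intramedullary wire. Diabetic rats had received 1 intravenous dose of 40 mg/kg streptozotocin, which destroys the insulin-producing beta cells, and had a blood glucose over 300 mg/dl per the labels. Control rats had received sodium chloride. Callus was taken on day 5 or day 11 after the fracture, and each pool combined 5 animals. The 4 groups (control and diabetic, at either time) therefore had 1 array each and no replicate, so no p-value was computed. In bulk tissue, fewer cells of a type and less RNA per cell cannot be told apart.

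The miR-181 family is made from bicistronic precursors, each of which gives an a and b or a c and d miRNA. The 5p arms act as the main guide strands and share their seed, the bases that pair with a target mRNA. In mice, miR-181a is known for raising the sensitivity of the T cell receptor in thymocytes, for promoting B-lineage cells in bone marrow, and for its increase when myoblasts differentiate. miR-181b is known in endothelial cells for lowering NF-kappaB signalling through an importin, and miR-181c has been found in mitochondria of rat heart muscle. Little is established for the 3p arms.

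The mature sequences are shown because they define which members share a seed and how closely the probed RNAs resemble each other. They were taken from RefSeq (build GRCr8), where all 7 members matched, with the seed at bases 2 to 8 in capitals and 5′ to 3′.
miR-181a-5p: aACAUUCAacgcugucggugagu
miR-181b-5p: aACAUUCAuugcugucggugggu
miR-181c-5p: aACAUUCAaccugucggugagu
miR-181d-5p: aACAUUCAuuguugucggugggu
miR-181a-1-3p: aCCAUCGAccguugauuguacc
miR-181c-3p: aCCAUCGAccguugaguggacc
miR-181a-2-3p: aCCACCAAccguugacugu
Among 693 mature rat miRNA names in this table, the seed of the 5p arms was found in those 4 miRNAs and in no other. The seed of miR-181a-1-3p was shared with miR-181c-3p alone, and that of miR-181a-2-3p with none. With positions counted from 1 at the 5′ end, miR-181b-5p differed from miR-181a-5p by A9U, C10U and A21G, and miR-181d-5p differed from miR-181b-5p by C12U. miR-181c-5p matched miR-181a-5p at 22 bases with a gap of 1 base. miR-181c-3p differed from miR-181a-1-3p by U16G and U19G. How far such closely related RNAs also bind each other's probes was not tested, and levels of different probes were not set against each other.

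In GRCr8, miR-181a-5p is encoded by Mir181a-1 (chr13:52037081-52037103, plus strand) and by Mir181a2 (chr3:43025601-43025623, plus strand), so its spot cannot tell these loci apart. The 3p arms come from 1 locus each, miR-181a-1-3p from chromosome 13 and miR-181a-2-3p from chromosome 3. On these arrays the spot of miR-181a-2-3p stayed within the range of the negative controls, as given below, so it shows nothing for chromosome 3. Mir181b1 lies 61 bases after Mir181a-1, and Mir181b2 lies 986 bases after Mir181a2 within the bounds of the gene Nr6a1. Mir181c and Mir181d lie 77 bases apart on chromosome 19, with miR-181c-5p at chr19:40888314-40888335 and miR-181d-5p at chr19:40888484-40888506, both on the plus strand. The hairpin of Mir181c is shown with its mature arms in capitals because both of its arms were among the members.
Mir181c hairpin (chr19:40888291-40888396, plus strand): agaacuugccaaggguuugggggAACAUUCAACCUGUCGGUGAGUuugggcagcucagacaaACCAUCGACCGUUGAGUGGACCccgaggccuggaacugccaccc

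Levels are blank-corrected intensities: the mean blank intensity of an array was taken off each spot, and 400 miRNAs detected on every array were brought to a common median of 100. A miRNA was detected where its spot exceeded the blank mean by 2 SD of the blank spots. Each difference carries a technical error (1 SD, log2) from the spread of the spike spots and the blank spots of both arrays, and differences among animals, among pools or among hybridisations are not part of it. A second value, after normexp correction for the spot's local background and quantile normalisation, is called the local-background value. The scanner's local background followed the spot, with a correlation of the log2 values across miRNA probes between 0.758 and 0.953. Between 482 and 560 miRNAs were detected per array, and the diabetic day 11 array was the dimmest, with a mean spike intensity of 14319 against 32447 to 36446 on the other arrays.

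Blank-corrected, the 5p arms and miR-181a-1-3p were lowest in control callus on day 5, higher in diabetic callus on day 5 and highest in the 2 day 11 pools. miR-181a-5p was at 826 (control) and 1128 (diabetic pool) on day 5, then 2327 (control) and 2186 (diabetic pool) on day 11. miR-181b-5p was at 122 and 213 on day 5 and at 293 and 286 on day 11, in the same order of groups. Both were thus lowest in control callus of day 5, with the day 11 pools closer to each other than the technical error of their difference. miR-181c-5p was at 69.4 and 89.7 on day 5 and at 154 and 191 on day 11. miR-181d-5p, which shares a precursor cluster with it, was at 84.9 and 97.0 on day 5 and at 135 and 157 on day 11. Blank-corrected, the highest pool of these cluster partners was diabetic day 11, whereas for miR-181a-5p and miR-181b-5p it was control day 11. Among these 5p arms only miR-181c-5p differed between the day 11 pools by more than 2 technical errors. By the local-background values miR-181a-5p (0.48) and miR-181b-5p (0.58) were higher in diabetic callus of day 11, and miR-181d-5p (-0.075) was lower.

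Of the 3p arms, miR-181a-1-3p was at 75.4 (control) and 149 (diabetic pool) on day 5, then 266 (control) and 189 (diabetic pool) on day 11. Its 4 blank-corrected levels were each separated from the next by more than 2 technical errors. By the local-background values it was instead lower in diabetic callus of day 11 than of day 5 (-0.38). Diabetic day 5 (0.39) and control day 11 (0.38) then lay alike above control day 5. For miR-181a-5p and miR-181b-5p the blank-corrected steps from control day 5 to diabetic day 5 and from there to diabetic day 11 passed 2 technical errors. The step between the day 11 pools did not. All 3 steps of miR-181c-5p passed 2 technical errors, the first (0.37 ± 0.18) and the last (0.32 ± 0.13) only narrowly. The technical error can be too small, as described under the processing. Of the steps of miR-181d-5p only that from diabetic day 5 to control day 11 did so (0.48 ± 0.16 log2).

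miR-181c-3p and miR-181a-2-3p were dim. miR-181c-3p was at 12.5 and 43.2 on day 5 (control, diabetic) and at 36.1 and 32.8 on day 11, and miR-181a-2-3p at 9.47 and 24.0 on day 5 and 11.8 and 17.9 on day 11. Each array held 24 negative control spots (3 probes with 8 spots each), and 8 to 15 of them also exceeded the detection limit. The highest negative control spot was at a level of 25.2 on control day 5, 39.2 on diabetic day 5, 34.3 on control day 11 and 51.3 on diabetic day 11. miR-181a-2-3p stayed below that spot on all 4 arrays, although it passed the detection limit on 3. miR-181c-3p exceeded it on 2 arrays, diabetic day 5 and control day 11. The other 5 members exceeded it on all 4. The spot of miR-181a-2-3p can therefore not be told apart from unspecific signal on any of the 4 arrays, nor that of miR-181c-3p in control callus of day 5 and diabetic callus of day 11, which touches every difference of these 2 arms below.

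**Figure D1:**
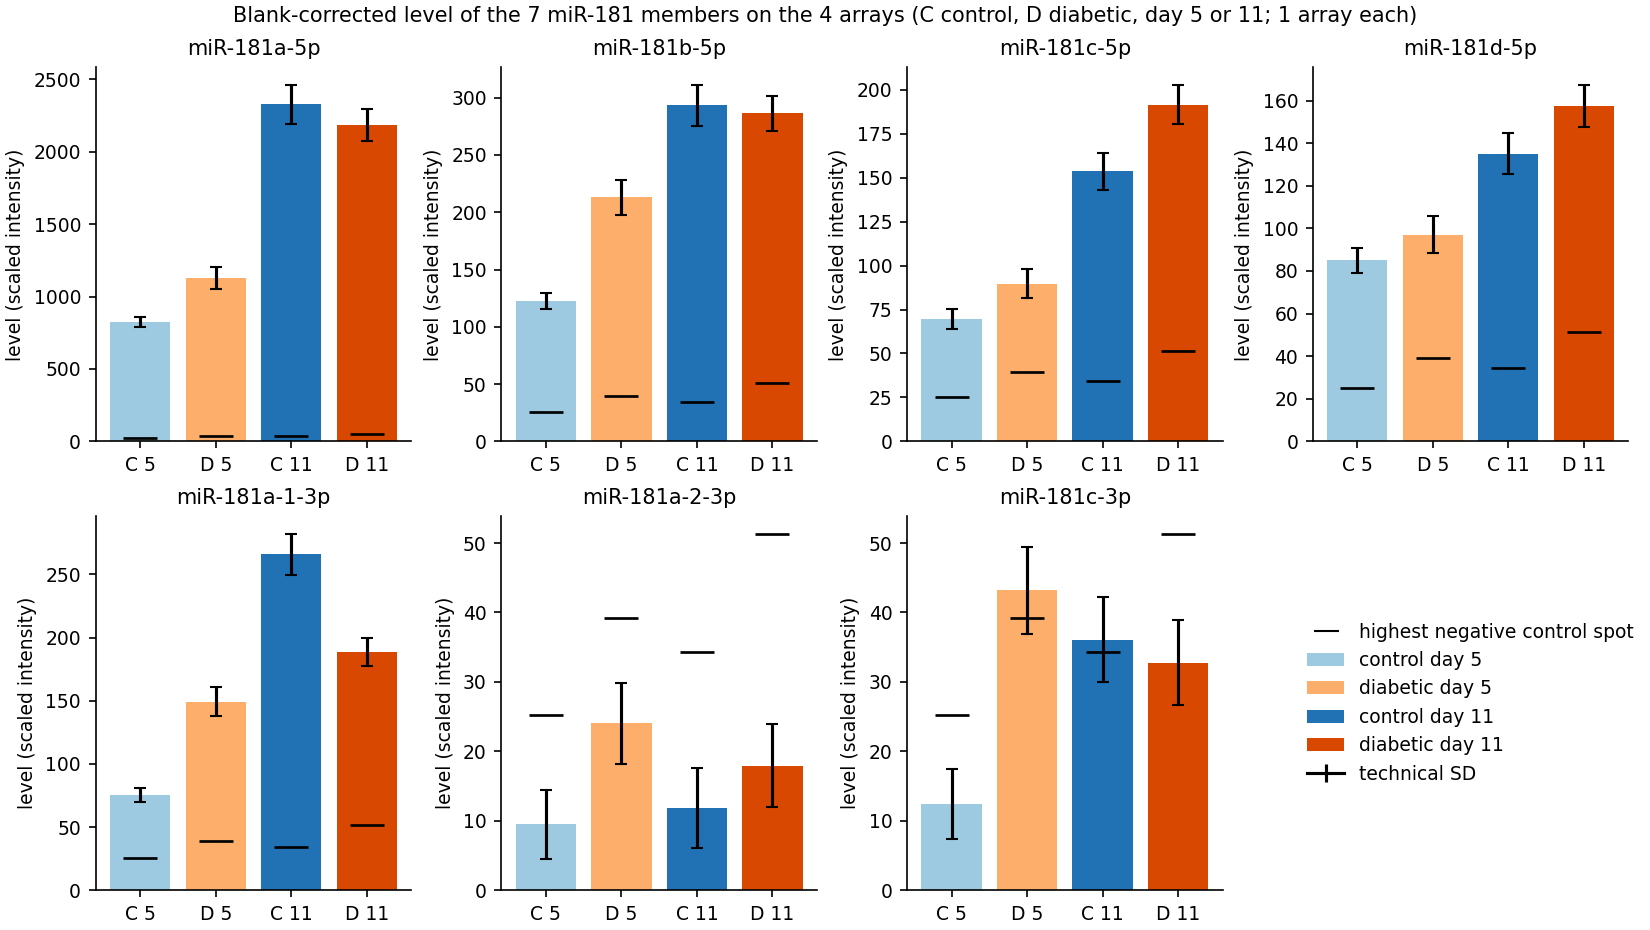
Blank-corrected level (scaled intensity, linear axis from 0) of each of the 7 members on the 4 arrays, 1 bar per array (C control, D diabetic, with the day). Error bars are 1 technical SD, and the short black lines mark the highest of the 24 negative control spots of that array. The 5 members above the negative control line on every array are lowest in control callus of day 5, and miR-181a-2-3p lies below the negative control line on every array.

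The 3 arms outside the list behaved alike in part. miR-181b-1-3p was at 25.1 and 46.3 on day 5 (control, diabetic) and at 82.4 and 67.7 on day 11, and exceeded every negative control spot on 3 arrays. Its order over the groups was that of miR-181a-1-3p, which comes from the same locus of chromosome 13. miR-181d-3p was detected on all 4 arrays, at 14.3 to 33.1, and miR-181b-2-3p on 3, at 14.7 to 33.1, and neither exceeded the negative controls on any array.

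**Figure D2:**
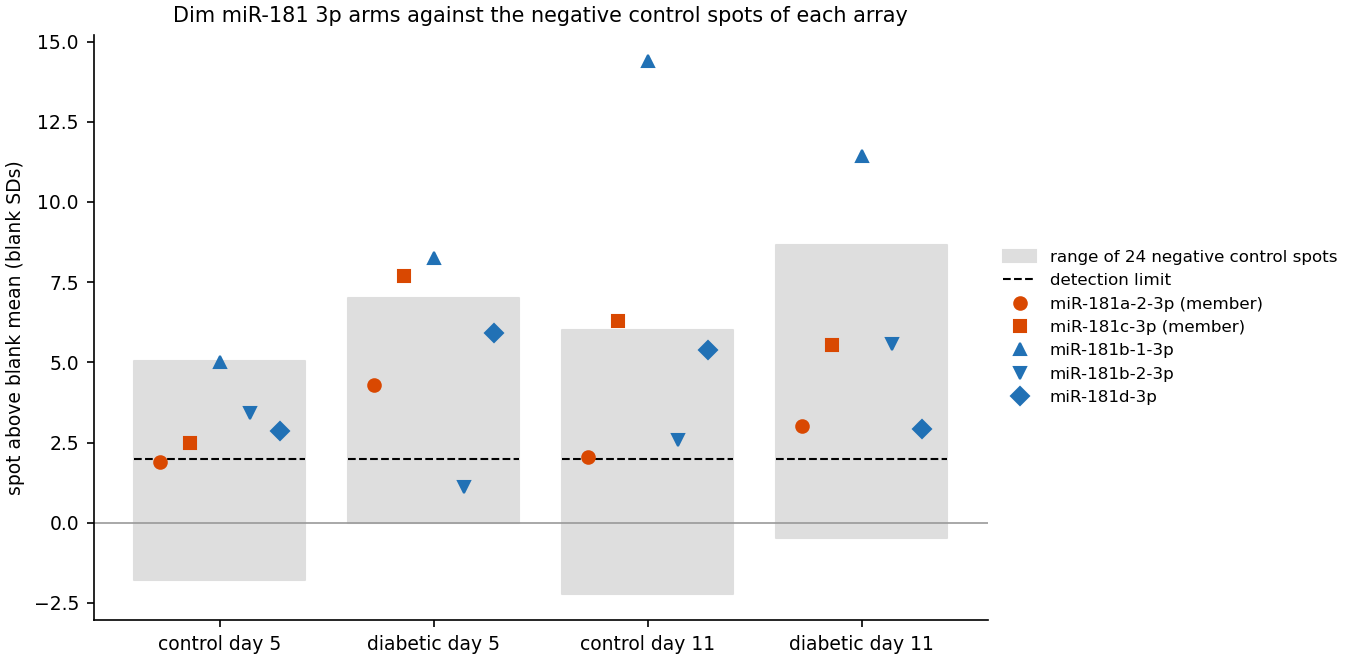
Spot intensity above the array's blank mean, in SDs of the blank spots, for 2 dim members (orange) and the 3 family arms outside the list (blue) on each array. Grey bands span the 24 negative control spots and the dashed line is the detection limit at 2 SD. miR-181b-1-3p lies above the band on 3 arrays, whereas miR-181a-2-3p, miR-181b-2-3p and miR-181d-3p lie within it on every array.

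Diabetic callus was compared with control callus on day 5, in the early phase of repair. All 6 members detected on both arrays were higher in the diabetic pool, against 54.9% of the 468 miRNAs compared. Their median log2 difference was 0.63, beside 0.038 over all 468. Under both corrections 5 were higher (38% of all miRNAs), and 1 was at least 2-fold higher (4.27%) and 0 at least 2-fold lower (2.56%). miR-181a-1-3p was 1.98-fold higher (log2 0.99 ± 0.16 technical error, local-background value 0.39) and had rank 22 of 468 from the highest. miR-181b-5p was 1.74-fold higher (log2 0.80 ± 0.13, local-background value 0.42) and miR-181a-5p 1.37-fold higher (0.45 ± 0.11, local-background value 0.43). miR-181c-5p differed by 0.37 ± 0.18, or 1.29-fold.

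miR-181d-5p differed by 0.19 ± 0.16 on day 5, which is within 2 technical errors (interval -0.13 to 0.52), and its local-background value was -0.050. The member past 2-fold was miR-181c-3p (log2 1.79 ± 0.62), which rests on a level of 12.5 in control callus, below the highest negative control spot. Its local-background value was 0.41. miR-181a-2-3p was not detected in control callus, its spots of day 5 lay within the range of the negative controls, and its local-background value was 0.043, so no fold is given.

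On day 11 the same comparison gave no common direction. Of the 7 members, all detected on both arrays, 3 were higher and 4 lower in diabetic callus, against 52.7% of 433 miRNAs that were higher. Under both corrections 1 was higher (33.9% of all miRNAs), and 0 were at least 2-fold higher (3.93%) or at least 2-fold lower (4.85%). The median was -0.034, beside 0.034 over all 433. miR-181a-5p (-0.090 ± 0.11) and miR-181b-5p (-0.034 ± 0.12) differed by less than their technical error. Their 2-error intervals were -0.31 to 0.13 and -0.27 to 0.20, while their local-background values were 0.48 and 0.58. For miR-181a-5p, local background made up 69.3% of the spot in control and 18.6% in diabetic callus of day 11, and for miR-181b-5p 71.3% and 40.6%.

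The members that differed by more than 2 technical errors on day 11 lay on opposite sides. miR-181a-1-3p was 1.41-fold lower in diabetic callus (log2 -0.49 ± 0.12, local-background value -0.37), and miR-181c-5p was 1.25-fold higher (0.32 ± 0.13, local-background value 0.41). miR-181d-5p was higher by 0.22 ± 0.14, with a local-background value of -0.075. The dim arms miR-181c-3p (-0.14 ± 0.36) and miR-181a-2-3p (0.60 ± 0.85) had technical errors larger than their differences.

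**Figure D3:**
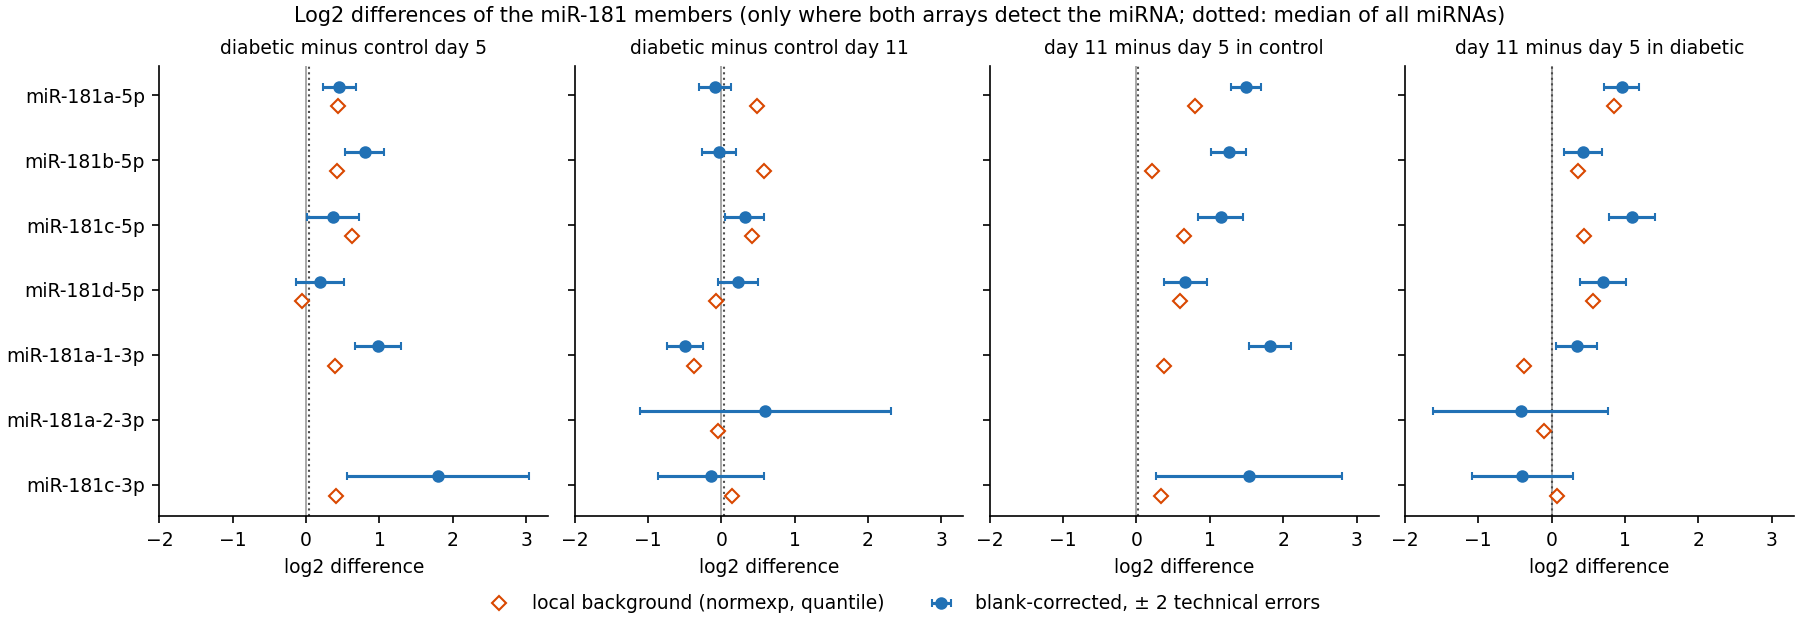
Log2 difference of each member in the 4 comparisons, blank-corrected with a bar of 2 technical errors (blue) and as the local-background value (open orange diamonds), for members detected on both arrays. The dotted line is the median of all miRNAs compared. In diabetic minus control callus on day 5 and in control callus over time all blank-corrected points lie above 0, and on day 11 they lie on both sides.

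Normal healing over time was examined next, as day 11 minus day 5 in the control pools. All 6 members detected on both arrays were higher on day 11, against 52.7% of 446 miRNAs, and all 6 were higher under both corrections (37.4%). At least 2-fold higher were 5 of them, against 6.95% of all miRNAs. The median was 1.38, beside 0.028 over all 446. miR-181a-1-3p was 3.53-fold higher (log2 1.82 ± 0.14, rank 8 of 446) and miR-181a-5p 2.82-fold higher (1.49 ± 0.10, rank 15). miR-181b-5p was 2.40-fold higher (1.26 ± 0.12) and miR-181c-5p 2.21-fold higher (1.15 ± 0.15). miR-181d-5p was 1.59-fold higher (0.67 ± 0.14). The dim miR-181c-3p had a difference of 1.53 ± 0.63.

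Local-background values of the control time course were smaller, at 0.80 for miR-181a-5p, 0.21 for miR-181b-5p, 0.65 for miR-181c-5p, 0.59 for miR-181d-5p and 0.38 for miR-181a-1-3p. The local-background value of miR-181c-3p was 0.33. No fold is given for miR-181a-2-3p, which was not detected on day 5 and had a local-background value of -0.017. Outside the list, miR-181b-1-3p was higher by 1.71 ± 0.32 (local-background value 0.17).

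In diabetic callus 5 of 7 members were higher on day 11 than on day 5 and 2 lower, against 50.2% of 444 miRNAs that were higher. Under both corrections 4 were higher (38.1%), and 1 was at least 2-fold higher (3.83%). The median was 0.43, beside 0.0065 over all 444. miR-181c-5p was 2.13-fold higher (log2 1.09 ± 0.16, local-background value 0.44) and miR-181a-5p 1.94-fold higher (0.95 ± 0.12, local-background value 0.85). miR-181d-5p was 1.62-fold higher (0.70 ± 0.16) and miR-181b-5p 1.34-fold higher (0.43 ± 0.13). miR-181a-1-3p was 1.27-fold higher (0.34 ± 0.14), with a local-background value of opposite sign, -0.38. The 2 lower members were the dim arms miR-181c-3p (-0.40 ± 0.34) and miR-181a-2-3p (-0.42 ± 0.60), both within 2 technical errors of 0, with local-background values of 0.067 and -0.11.

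**Figure D4:**
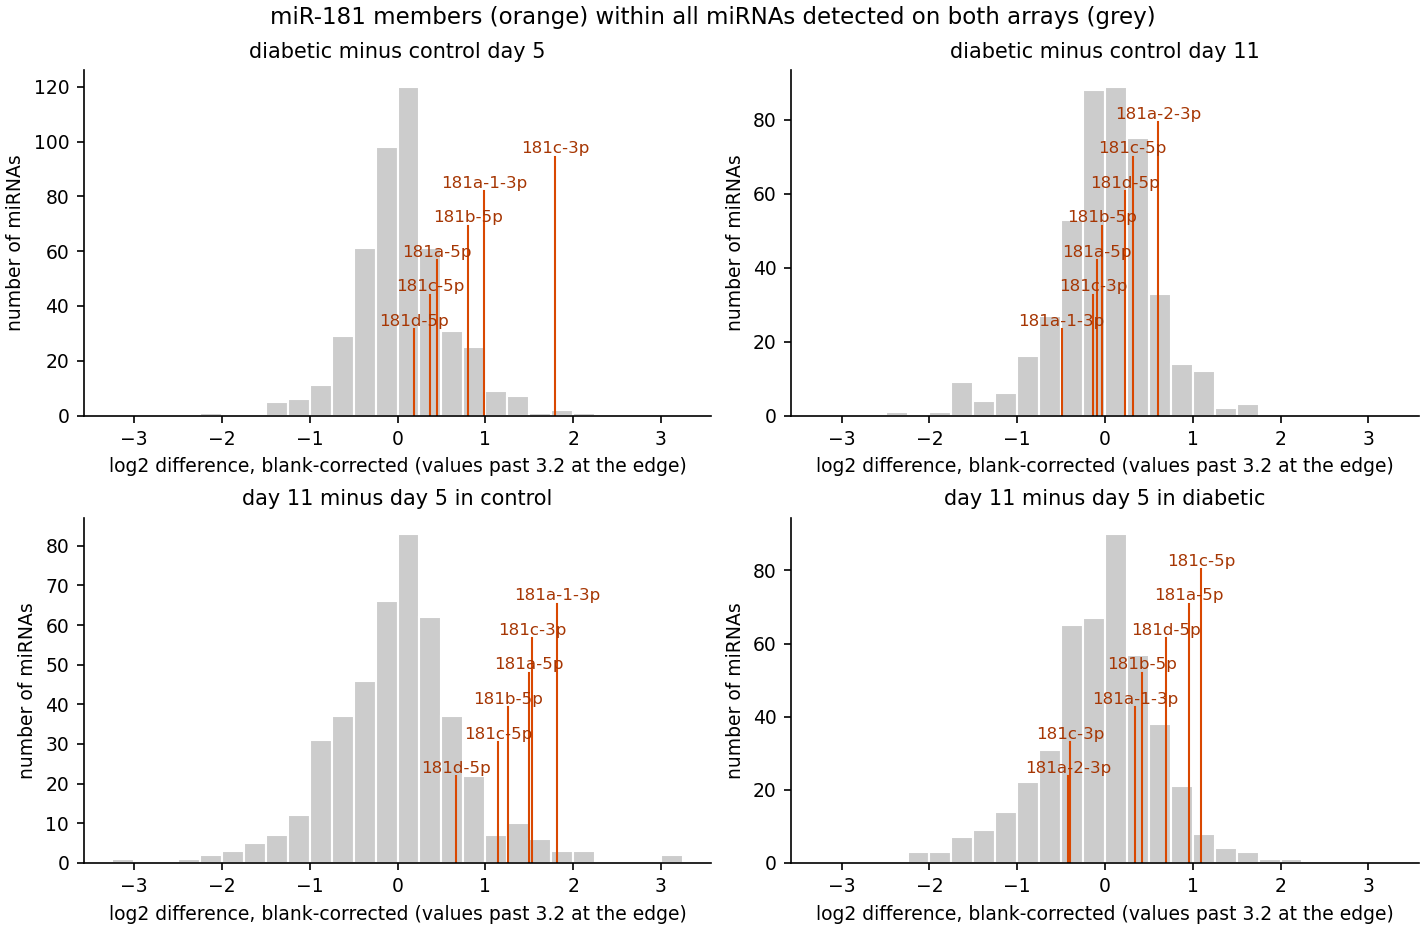
Distribution of the blank-corrected log2 differences of all miRNAs detected on both arrays (grey, number of miRNAs per bin of 0.25) in the 4 comparisons, with the members marked by orange lines whose height carries no value. In control callus over time the 6 members lie between 0.67 and 1.82, and on day 11 they lie between -0.49 and 0.60.

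The diabetic difference on day 11 was set against that on day 5, which is the same quantity as the difference between the time courses of diabetic and control callus. It was below 0 for 5 of 6 members, against 47.2% of the 400 miRNAs detected on all 4 arrays. The median was -0.69 blank-corrected and -0.12 by the local-background values, beside a blank-corrected median of 0.038 over all 400. It was -1.48 ± 0.20 for miR-181a-1-3p (rank 16 of 400 from the lowest, local-background value -0.76). miR-181b-5p was at -0.83 ± 0.18 and miR-181a-5p at -0.54 ± 0.16, with local-background values of 0.16 and 0.054. The cluster partners miR-181c-5p (-0.053 ± 0.22) and miR-181d-5p (0.031 ± 0.21) had differences smaller than their technical error. The dim miR-181c-3p was at -1.93 ± 0.72, with a local-background value of -0.27. Blank-corrected, only these 2 3p arms among the members passed 2-fold, and by the local-background values no member did.

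Blank-corrected, control day 5 was the lowest of the 4 arrays for all 6 members detected on every array, against 26.8% of 400 miRNAs. For 5 of these diabetic day 5 came next (17.8%). By the local-background values not every member kept this order. miR-181d-5p was then lower in diabetic than in control callus of day 5 (-0.050). miR-181b-5p was 0.42 above control day 5 in diabetic callus of day 5 and 0.21 above it in control callus of day 11. The day 5 difference between the groups and the control time course share the control day 5 array, so they are not independent of each other. Without that array the medians are those of day 11, -0.034, and of the diabetic time course, 0.43. The spread was not the same for every member: the range over the 4 arrays was 1.49 log2 units for miR-181a-5p, 1.26 for miR-181b-5p, 1.46 for miR-181c-5p, 0.89 for miR-181d-5p and 1.82 for miR-181a-1-3p.

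Likeness of pattern was measured as the root mean square distance between log2 levels, each centred on its own mean over the 4 arrays, to miR-181a-5p. Among 399 miRNAs detected on all arrays the median distance was 0.70. Within the family it was 0.16 for miR-181c-5p (rank 4), 0.23 for miR-181b-5p (rank 7), 0.25 for miR-181a-1-3p (rank 11), 0.31 for miR-181d-5p (rank 23) and 0.58 for the dim miR-181c-3p (rank 128). The 5 most similar miRNAs outside the list were miR-6318 (0.076), miR-365-5p (0.097), miR-6332 (0.14), miR-181b-1-3p (0.17) and miR-129-2-3p (0.21). miR-129-2-3p exceeded every negative control spot on 1 array only, control day 11, and miR-181b-1-3p on 3, so their distances rest in part on spots within the range of the negative controls. miR-6332 was at 924 and 1210 on day 5 (control, diabetic) and at 2009 and 2193 on day 11. miR-365-5p was at 170 and 254 on day 5 and at 439 and 477 on day 11. The distance rests on 4 arrays and describes these pools.

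**Figure D5:**
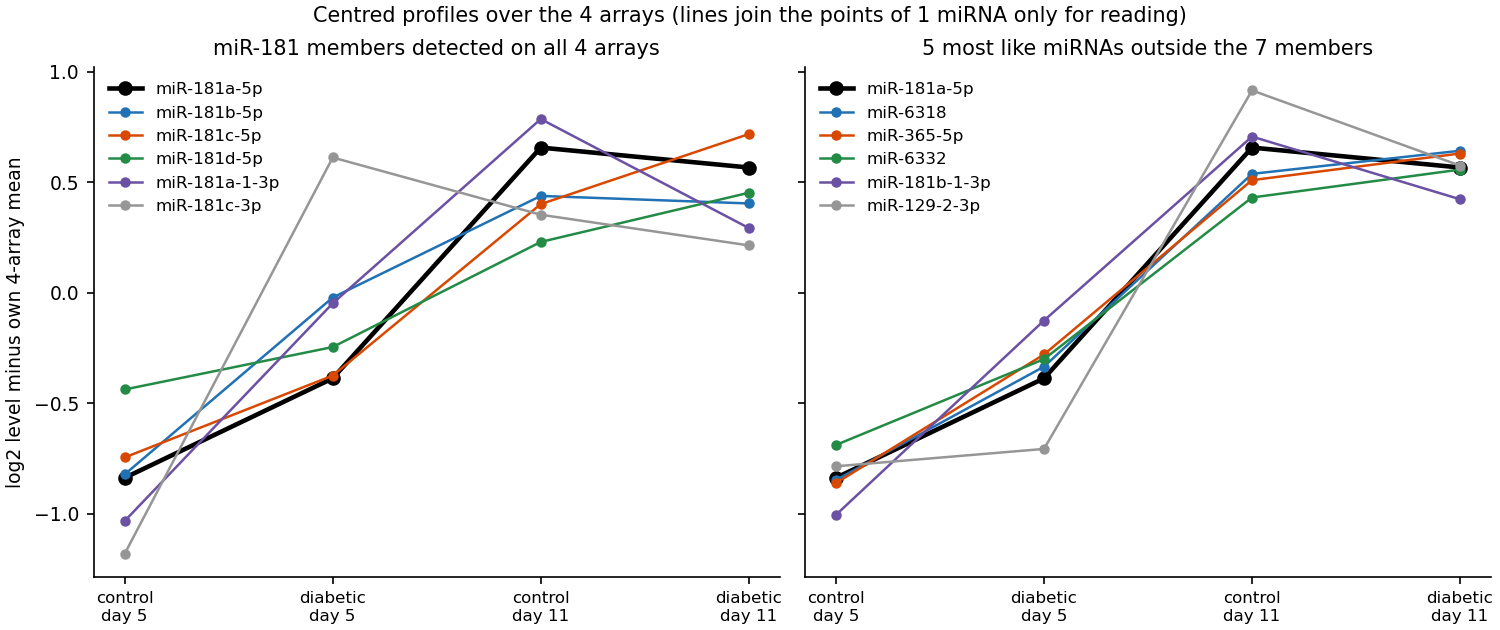
Log2 level of each miRNA minus its own mean over the 4 arrays, for the members detected on all arrays (left) and the 5 most similar miRNAs outside the list (right), with miR-181a-5p in black in both panels. All lines start lowest in control callus of day 5, and miR-181c-3p departs most from miR-181a-5p, with its highest level in diabetic callus of day 5.

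Markers of other cell types moved between the same arrays, and their part in the miR-181 levels was not tested. Of the 3 erythroid miRNAs, miR-451-5p and miR-144-3p were compared throughout, and their summed level was 512 (control) and 1445 (diabetic) on day 5, then 1591 and 1556 on day 11. The erythroid sum was thus also lowest on the control day 5 array. Its median difference over time in control callus was 1.74 blank-corrected and -1.02 by the local-background values, so its direction flips with the correction. miR-144-5p was detected on 1 array. The 6 cartilage miRNAs summed to 2512 and 2756 on day 5 and to 18426 and 5825 on day 11, which is high in control callus of day 11. Most of this sum was miR-140-3p and miR-140-5p, at 10566.5 and 6675 in control callus of day 11. In control callus miR-675-5p was at 128 on day 5 and 174 on day 11, and miR-675-3p at 74.0 and 82.8. The summed level of the 6 leukocyte miRNAs was lower on day 11, at 9476 and 5848 on day 5 and 1809 and 1954 on day 11, with 5 lower and 1 (miR-155-5p) higher over time in control callus. Of this sum, miR-223-3p made up 5675 and 3130 on day 5 and 598 and 789 on day 11. Also lower on day 11 were the sums of the 5 skeletal muscle miRNAs, at 28356 and 29676 on day 5 and 9412 and 9999 on day 11, and of the 2 endothelial miRNAs, at 6973 and 5492 on day 5 and 3951 and 4160 on day 11. Of the 7 epithelial miRNAs, only miR-205 was detected on all 4 arrays, at 35.8 to 62.1, and miR-200a-3p on none.

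A list of 14 miRNAs drawn up for lymphocyte development was compared as well, and 5 of them are also in the leukocyte list. It also holds miR-223-3p, which is known mainly from myeloid cells. In diabetic against control callus 5 were higher and 9 lower on day 5 (median -0.026, by the local-background values -0.084). On day 11, 11 were higher and 3 lower (median 0.38, by the local-background values 0.15). Of all miRNAs compared, 54.9% were higher on day 5 and 52.7% on day 11. Over time 3 were higher and 11 lower in control callus (median -1.10, by the local-background values -0.77), against 52.7% of all miRNAs that were higher. Of the 11, 8 were at least 2-fold lower, against 6.95% of all miRNAs compared. In diabetic callus 3 were higher and 11 lower (median -0.57, by the local-background values -0.46), against 50.2% of all miRNAs that were higher. Of the 11, 4 were at least 2-fold lower, against 8.11%. The 3 of the list that were higher over time in control callus were miR-24-3p (0.86), miR-125b-5p (0.45) and miR-155-5p (0.41). The list includes miR-17-5p, miR-18a-5p, miR-19a-3p, miR-19b-3p, miR-20a-5p and miR-92a-3p, which belong to the same cluster. All of these were higher in diabetic callus on day 11 (0.35 to 0.80) and lower over time in both groups. The counts and medians are therefore not those of 14 independent miRNAs. Whether the levels of this list bear on those of the miR-181 family was not tested.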

How the data were processed

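Per the labels' protocols, pooled callus was sent to the array's maker (3D-Gene arrays), and RNA was labelled with Cy5. Per the file headers, the deposited scanner files hold the median intensity of each spot and of its local background at 635 nm. How the authors' deposited value table was made is not given in the sources used here. Set against the scanner files, its values were linear intensities equal to the spot minus the blank mean times 1 factor per array. They had a median of 25 on each array. The match was within 0.103%, a bound that leaves out the lowest deposited values. The deposited values served as an alternative.

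The mean of the 1504 blank spots of each array was subtracted, with 5% of them left out at each end for this mean and for their SD. Arrays were scaled as described. This was chosen as the main value because the local background followed the spot. The alternative used limma 3.58.1 (R 4.3.3) normexp with an offset of 50 and quantile normalisation. Spike spots marked as not usable were left out (1 spot). Control probe S-Probe28, with 8 spots and levels of 26.9 to 49.5, had an SD of 7.10 to 14.3, against blank SDs of 5.01 to 5.93, so the technical error can be too small for dim miRNAs. With 1 array per group the number of arrays limits the precision. The calculation was tested on simulated data. Their noise was drawn with the same spike and blank SDs that the technical error uses. The simulation can therefore not show whether that error is large enough for real spots.

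The members, lists and rules were chosen with earlier results of these data known. Named are all members and the 5 miRNAs most like miR-181a-5p outside the list. Cell type lists are given as summed levels and the lymphocyte list as counts and medians. Sequences come from RefSeq tables (GRCr8).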

Additional observations from a re-analysis of the deposited data

Results flagged for a closer look

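Members whose effect had opposite directions in the 2 settings of the same contrast, each past 1 technical error, were singled out. This difference was not tested, since each group had 1 array. miR-181a-1-3p was higher in diabetic than in control callus on day 5 (0.99) and lower on day 11 (-0.49), a difference of -1.48 ± 0.20 (technical error, log2). By the local-background values these were 0.39, -0.37 and -0.76. miR-181c-3p was higher on day 11 than on day 5 in control callus (1.53 ± 0.63) and lower in diabetic callus (-0.40 ± 0.34), a difference of -1.93 ± 0.72. The value in diabetic callus is within 2 technical errors of 0, so its direction is not settled. On 2 of the 4 arrays the spot of miR-181c-3p did not exceed the highest negative control spot. The local-background values of miR-181c-3p were 0.33 in control and 0.067 in diabetic callus, a difference of -0.27, so the opposite directions are not seen under that correction.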

How the results depend on the processing

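No paired analysis was possible because each group has 1 array. Family medians that moved by more than the technical error are given in log2 units. For diabetic minus control on day 5 (0.63) they were 0.42 with normexp on the local background, 0.42 with normexp on the blank mean, 0.93 with the authors' deposited values, 0.43 with a detection limit of 3 SD and 0.34 with the highest negative control spot as the limit. The authors' scaling shifted the median of all miRNAs by 0.34 in this comparison and by -0.29 in the diabetic time course, and both stricter limits leave out miR-181c-3p where control day 5 is compared. Of all miRNAs compared on day 5, 38.0% were higher in diabetic callus with spike scaling, 79.3% with the authors' values and 37.0% with the negative control limit, against 54.9%. On day 11 it was 41.1% with the negative control limit against 52.7%, over time in control callus 42.0% with the negative control mean subtracted against 52.7%, and over time in diabetic callus 27.5% with the authors' values against 50.2%. The family median on day 11 (-0.034) was 0.14 with the local background and -0.18 with the negative control limit. In control callus over time (1.38) it was 0.48 with the local background, 0.73 with normexp on the blank mean, 1.21 with 3 SD and 1.23 with the negative control limit. In diabetic callus over time (0.43) it was 0.25 with normexp on the blank mean, 0.13 with the authors' values and 0.63 with the negative control limit. Here and on day 11 that limit leaves 5 members, without the dim miR-181c-3p and miR-181a-2-3p. In the diabetic time course the members kept were each slightly lower than before, such as miR-181a-5p (0.89 against 0.95), so the higher median comes from the smaller set. The difference between the days (-0.69) was -0.12 with the local background and -1.05 with the authors' values. With blank subtraction and quantile normalisation, the median was 0.62 on day 5 and 1.25 in control callus over time. On day 5 normexp thus gave 0.42 with either background. The local-background values therefore also hold the effect of normexp with its offset, and not that of the local background alone. The parts of these steps were not tested further. Of 277 values of single members under the 9 alternatives, 259 kept their sign, 204 moved by less than the technical error, and 0 of those past 2-fold changed sign. With the local background 21 of 32 kept their sign. Of values more than 2 technical errors from 0, those that turned were miR-181a-1-3p over time in diabetic callus (0.34 to -0.38) and the difference between the days of miR-181a-5p (-0.54 to 0.054) and miR-181b-5p (-0.83 to 0.16). The others that turned were nearer to 0, among them, on day 11, miR-181a-5p (-0.090 to 0.48), miR-181b-5p (-0.034 to 0.58) and miR-181d-5p (0.22 to -0.075), each a move of more than 2 errors. Under each other alternative, 2 or fewer signs turned. Subtracting the negative control mean and using the negative controls as a limit were chosen after seeing the data.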

Other observations

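In the authors' deposited table, which is scaled differently, miR-181a-5p was listed at 311 (control) and 524 (diabetic) on day 5, and at 922 and 830 on day 11. The same authors' deposited table listed miR-181a-1-3p at 28.4 and 69.4 on day 5 and at 105 and 71.7 on day 11.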
